A study of Mus musculus with 12 samples.

Results

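Cholesterol and fatty acid synthesis in the hypothalamus was examined through 34 genes, taken by symbol from a list of sterol pathway enzymes, regulators of the sterol response and lipogenic enzymes. All 34 were found among the 17161 genes listed on either diet, and all 34 were tested on both diets. RNA-Seq was performed on the hypothalamus of 12 male mice aged 8 weeks, in 4 groups of 3. Both genotypes, WT (+/+) and Gpr75-/-, were studied under chow feeding and after a high-fat diet (HFD) given for the last 2 weeks. GPR75 is a G protein-coupled receptor, and the Gpr75-/- mice carry a CRISPR/Cas9 null allele on the C57BL/6J background in which translation stops shortly after the start codon, so the mRNA can still be made. The comparison asks how loss of GPR75 changes hypothalamic transcripts on each diet. The authors deposited 1 set of results per gene and diet and no values of single mice, so each gene is given below as 1 group value per genotype, a log2 fold change (Gpr75-/- over WT), and the standard error (SE) of that change from the 6 mice on the diet.

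Cells make cholesterol from acetyl-CoA through mevalonate, farnesyl diphosphate, squalene and lanosterol, and the transcription factor SREBP-2, encoded by Srebf2, induces nearly every enzyme of this route when membrane sterol is low. SCAP carries SREBP from the endoplasmic reticulum to the Golgi for activation, and INSIG proteins hold it back when sterol is plentiful, while SREBP-1, encoded by Srebf1, acts more on fatty acid synthesis. The brain makes its own cholesterol behind the blood-brain barrier, with astrocytes and oligodendrocytes as major producers, and most of it lies in myelin.

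SREBP and its partner NF-Y act through elements in the promoters of sterol genes. The promoters of 5 members, picked by their unadjusted p-values, are shown. They are Msmo1, Idi1, Cyp51 and Hsd17b7, which have the lowest unadjusted p-values on chow among members with a promoter entry, and Hmgcs1, which has the lowest on the HFD. They were chosen after these values were seen, and none of them passed the Benjamini-Hochberg adjustment on either diet. Each run is 300 bases of RefSeq sequence of the GRCm38.p6 build, from 250 bases before to 50 bases after the annotated start, read 5′ to 3′ in the direction of the gene. Capitals mark the NF-Y box CCAAT, its reverse complement ATTGG, and the sterol regulatory element TCACNCCAC.
Msmo1, chr8:64733529-64733828, minus strand: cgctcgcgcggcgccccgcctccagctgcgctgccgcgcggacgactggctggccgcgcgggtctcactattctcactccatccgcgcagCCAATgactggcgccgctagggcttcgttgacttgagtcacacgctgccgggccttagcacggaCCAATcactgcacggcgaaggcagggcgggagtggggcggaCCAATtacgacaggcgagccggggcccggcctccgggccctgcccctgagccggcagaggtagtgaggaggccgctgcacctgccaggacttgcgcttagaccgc
Idi1, chr13:8885356-8885655, plus strand: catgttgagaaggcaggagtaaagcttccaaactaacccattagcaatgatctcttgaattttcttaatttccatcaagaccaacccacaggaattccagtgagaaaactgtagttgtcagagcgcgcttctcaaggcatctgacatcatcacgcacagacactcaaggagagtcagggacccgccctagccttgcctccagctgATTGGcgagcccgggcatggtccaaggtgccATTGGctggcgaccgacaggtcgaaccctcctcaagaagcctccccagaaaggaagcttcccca
Cyp51, chr5:4104648-4104947, minus strand: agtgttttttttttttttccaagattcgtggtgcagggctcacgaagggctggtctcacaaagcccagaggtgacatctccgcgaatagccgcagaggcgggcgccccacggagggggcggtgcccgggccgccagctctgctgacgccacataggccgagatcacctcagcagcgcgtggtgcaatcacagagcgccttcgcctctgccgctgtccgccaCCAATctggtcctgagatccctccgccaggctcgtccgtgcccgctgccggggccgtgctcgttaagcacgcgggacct
Hsd17b7, chr1:169969156-169969455, minus strand: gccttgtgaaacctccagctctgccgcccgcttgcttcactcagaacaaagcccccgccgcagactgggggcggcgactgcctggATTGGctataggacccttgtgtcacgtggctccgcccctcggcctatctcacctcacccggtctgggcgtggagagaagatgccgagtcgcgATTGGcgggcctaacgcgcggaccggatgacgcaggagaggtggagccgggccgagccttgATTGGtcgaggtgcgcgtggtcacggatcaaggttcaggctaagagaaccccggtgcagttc
Hmgcs1, chr13:119690101-119690400, plus strand: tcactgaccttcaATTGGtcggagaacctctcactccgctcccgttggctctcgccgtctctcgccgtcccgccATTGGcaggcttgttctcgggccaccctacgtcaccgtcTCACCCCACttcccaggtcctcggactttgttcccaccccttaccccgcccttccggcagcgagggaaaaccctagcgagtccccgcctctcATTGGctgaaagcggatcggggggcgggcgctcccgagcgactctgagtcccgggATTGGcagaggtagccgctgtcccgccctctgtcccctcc
Msmo1 and Hsd17b7 hold 3 NF-Y boxes each, Idi1 holds 2, Cyp51 holds 1 and Hmgcs1 holds 4. TCACNCCAC was not found in the windows of Msmo1, Idi1, Cyp51 and Hsd17b7. The sterol regulatory element of Hmgcs1 begins 137 bases before the start, between its NF-Y boxes at 176 and 45 bases before the start.

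RefSeq promoter windows were found for 27 of the 34 members, and not for Fads1, Fdft1, Fdps, Scd1, Scd2, Sqle and Stard4. Of these 27, 22 (81.5%) held CCAAT on either strand in at least 1 window, against 41.1% of all genes with a window and 42.9% of the genes tested here. TCACNCCAC was found in 1 member, Hmgcs1 (3.70%), against 1.44% of all genes. The GC box GGGCGG was found in 23 members (85.2%) against 38.2% of all genes and 67.7% of the tested genes, and the E-box CACGTG in 5 members (18.5%) against 8.09% and 11.5%. Both strands were searched, these motifs may overlap each other, and a match in letters describes the window only.

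The levels of the members ranged widely, from the percentile 6.47 of all tested genes in chow WT mice for Fdps to 99.7 for Scd2. Depth, as the sum of the mean normalized counts of an average mouse, was 18280462 on chow and 19420111 on the HFD, and the mean count of a member ran from 62.4 for Fdps to 48578 for Scd2. Scd2, the main stearoyl-CoA desaturase of the brain, had the highest level at 441 CPM per kilobase of exon (mean of the 4 group values, which ran from 409 to 460), and no other member came near this range. Fads2, the desaturase that opens polyunsaturated fatty acid synthesis, followed at 95.8 CPM per kilobase, and Hmgcs1, HMG-CoA synthase, was the most abundant sterol enzyme at 71.9. Fads1 at 58.1 and Acly at 54.7 CPM per kilobase, a second polyunsaturated fatty acid desaturase and the enzyme that turns citrate into cytosolic acetyl-CoA, followed, with group values of 55.6 to 60.7 and 52.9 to 55.3. Scd1 stood at 45.2, and the members from Sc5d at 30.5 to Idi1 at 20.3 CPM per kilobase overlapped with their neighbours in that order over the 4 groups. At the low end were the lanosterol synthase Lss at 2.82 and the farnesyl diphosphate synthase Fdps at 0.813 CPM per kilobase.

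The value of Fdps is uncertain. Transcripts of 5 other genes each match at least 25% of the Fdps transcript at 95% identity or more, the longest of them 81.62%, so its reads can be split or dropped. One of these, the processed pseudogene Gm3571, was listed with 5.231 CPM in chow WT mice, above the 2.926 CPM of Fdps itself. Near-identical stretches of 65.64% of the transcript for Acat2 (with Acat3), 64.3% for Acaca (with Gm5182), up to 49.76% for Me1 (with Gm48795 and Gm7049) and 33.75% for Fdft1 (with Gm6781) leave these members open to the same splitting. No other member shared 25% or more of its transcript with a single other gene at this identity, but shorter matches to several genes together covered 33.27% of the Idi1 transcript.

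**Figure D1:**
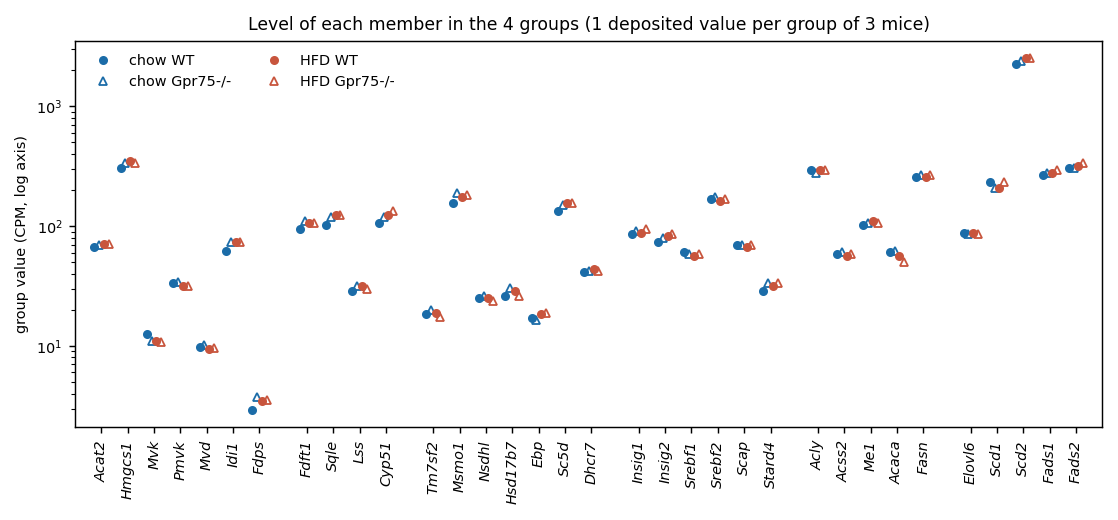
Group values of the 34 members in CPM on a log axis, 1 deposited value per group of 3 mice, with chow in blue, HFD in red, WT as filled circles and Gpr75-/- as open triangles. The 4 groups lie close together for every member beside the range between members, from 2.926 CPM for Fdps to 2513 CPM for Scd2.

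On chow, no member passed the Wald test after Benjamini-Hochberg adjustment over the 16191 genes tested, of which 10 genes, or 0.0618%, did. Of the 34 members, 27 had a higher estimate in Gpr75-/- mice and 7 a lower one. Over all genes tested, 7912 of 16191 had a higher estimate. The median log2 fold change of the members was 0.059, against -0.003 over all genes tested, and the members ran from -0.201 (Mvk) to 0.325 (Fdps). At an unadjusted p under 0.05, 6 members (17.6%) were above WT, where 2.13% of all genes were, and 0 members were below WT, where 2.55% of all genes were. These 6 were Idi1, Fdft1, Sqle, Cyp51, Msmo1 and Hsd17b7, all of them sterol enzymes. Under a t distribution with 4 degrees of freedom, in place of the normal distribution of the Wald test, Msmo1 alone of these stayed under 0.05. The members were measured in the same 6 mice, so their estimates are not independent of each other.

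Msmo1, the methylsterol monooxygenase that removes methyl groups from lanosterol derivatives, had the lowest p-value of the members. Its group value was 155.6 CPM in WT and 190.6 CPM in Gpr75-/- mice on chow. The fold was 1.202, with a 95% interval of 1.089 to 1.326, and the log2 fold change was 0.265 ± 0.072 (SE), with an unadjusted Wald p of 0.000249 and a Benjamini-Hochberg adjusted p of 0.183. On the HFD the values were 175.6 CPM in WT and 182.9 CPM in Gpr75-/- mice, a log2 fold change of 0.017 ± 0.056. The chow WT group was thus the lowest of the 4.

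The early mevalonate steps, from acetyl-CoA to farnesyl diphosphate, were mixed on chow. Of 7 members, 6 had a higher estimate in Gpr75-/- mice, with a median log2 fold change of 0.053. Idi1, which interconverts the isoprene units isopentenyl and dimethylallyl diphosphate, was listed at 62.44 CPM in WT and 74.03 CPM in Gpr75-/- mice. Its log2 fold change was 0.224 ± 0.082 (Benjamini-Hochberg adjusted p = 0.787). Hmgcs1, which condenses acetyl-CoA with acetoacetyl-CoA, was listed at 305.2 and 333.8 CPM with a log2 fold change of 0.111 ± 0.070. Mevalonate kinase, Mvk, was the 1 early enzyme with a lower estimate, at 12.63 CPM in WT and 11.07 CPM in Gpr75-/- mice (-0.201 ± 0.144). Acat2, Pmvk and Mvd, which make acetoacetyl-CoA, phosphorylate mevalonate phosphate and decarboxylate its product, lay between 0.022 and 0.053 with SEs of 0.076 to 0.157. The largest estimate of any member, 0.325 for Fdps, had an SE of 0.280.

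The 4 enzymes from squalene formation to lanosterol demethylation all had higher estimates in Gpr75-/- mice on chow, with a median log2 fold change of 0.183. Squalene synthase, Fdft1, commits farnesyl diphosphate to sterols and was listed at 94.91 CPM in WT and 110.0 CPM in Gpr75-/- mice (0.194 ± 0.075, Benjamini-Hochberg adjusted p = 0.806). Squalene epoxidase, Sqle, was listed at 102.1 and 118.6 CPM (0.192 ± 0.080, adjusted p = 0.896). The lanosterol demethylase Cyp51 was listed at 106.0 and 118.6 CPM (0.173 ± 0.067, adjusted p = 0.831). For these 3 the unadjusted p-values were 0.00915, 0.0169 and 0.0102, and none passed the adjustment. Lanosterol synthase, Lss, which closes the sterol ring, was listed at 28.97 and 31.55 CPM with 0.097 ± 0.100.

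Among the 7 later sterol enzymes, 6 had higher estimates on chow, with a median log2 fold change of 0.102. Beside Msmo1, the sterol ketone reductase Hsd17b7 stood out, at 25.92 CPM in WT and 30.66 CPM in Gpr75-/- mice, with a log2 fold change of 0.255 ± 0.101 and a Benjamini-Hochberg adjusted p of 0.867. The desaturase Sc5d was listed at 133.0 and 149.6 CPM (0.122 ± 0.065). The reductase Tm7sf2 was at 0.102 ± 0.123, the dehydrogenase Nsdhl at 0.021 ± 0.105, and Dhcr7, which makes cholesterol in the last step of one branch of the pathway, at 0.011 ± 0.092 on the log2 scale. The isomerase Ebp was the 1 later enzyme with a lower estimate, at -0.077 ± 0.124.

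Over all 18 sterol enzymes, 16 had higher estimates on chow, with a median log2 fold change of 0.107 and 6 (33.3%) at an unadjusted p under 0.05. The 10 fatty acid members had a median of 0.025, with 7 of 10 higher and 0 at an unadjusted p under 0.05. In the fatty acid chain steps, Acly was at -0.071 ± 0.071, Acss2, which makes acetyl-CoA from acetate, at 0.016 ± 0.086, and malic enzyme, Me1, a source of NADPH, at 0.054 ± 0.071. Acetyl-CoA carboxylase, Acaca, makes malonyl-CoA and was at 0.022 ± 0.110, and fatty acid synthase, Fasn, was at 0.070 ± 0.082. The elongase Elovl6 was at -0.048 ± 0.073, Scd2 at 0.085 ± 0.058, Fads1 at 0.030 ± 0.063 and Fads2 at 0.028 ± 0.060. Scd1 was at -0.140 ± 0.253, beside a median SE of 0.082 over the members. This SE was 13.9 times the error of counting alone, against a median of 2.53 times over the members, so little of it was counting error. The ratio does not rank members by their spread, since it was 10.2 for Scd2, whose SE was 0.058.

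Of the 6 regulators and sterol transport genes, 4 had higher estimates on chow, with a median log2 fold change of 0.076. Srebf2 was listed at 168.6 CPM in WT and 175.6 CPM in Gpr75-/- mice (0.088 ± 0.090), and Srebf1 at 60.39 and 58.43 CPM (-0.048 ± 0.092). Insig1, which is itself induced by SREBP, was at 0.098 ± 0.079, Insig2 at 0.064 ± 0.076 and Scap at -0.001 ± 0.080. Stard4, a cytosolic sterol carrier, was listed at 28.97 and 33.43 CPM with 0.170 ± 0.097 and had the highest estimate of this set. None of the 6 had an unadjusted p under 0.05.

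**Figure D2:**
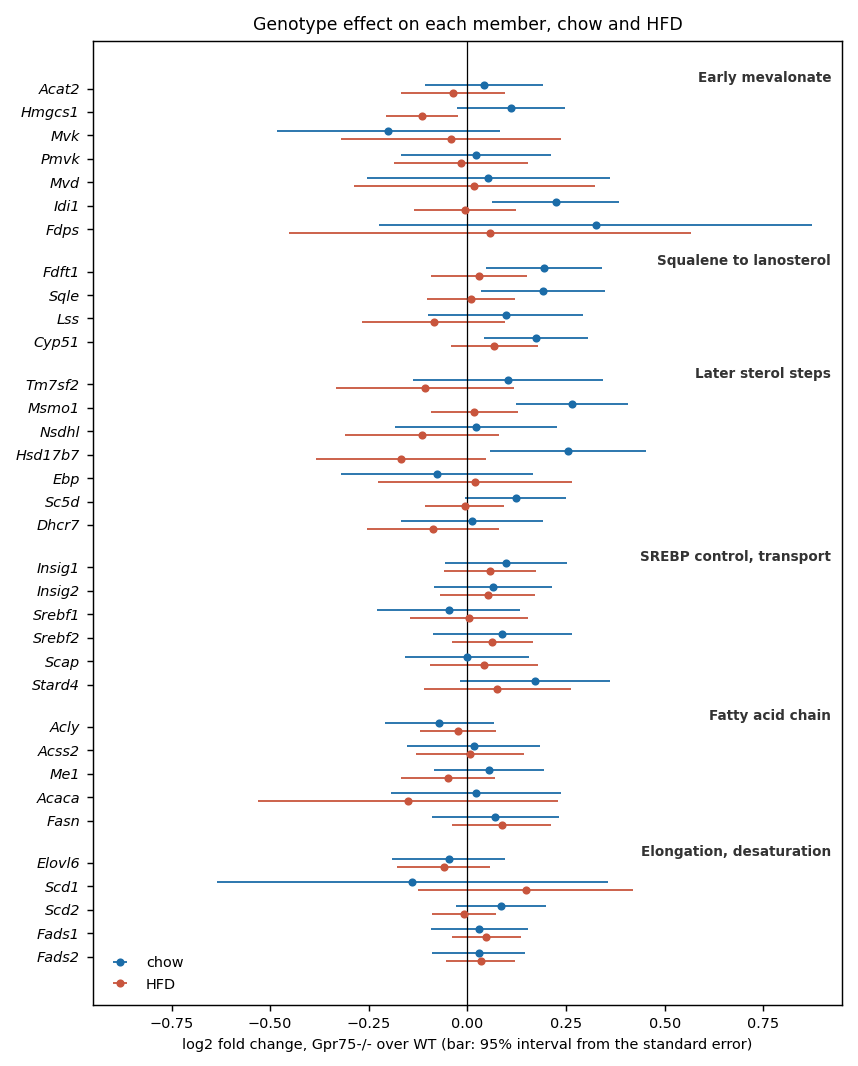
Log2 fold change of Gpr75-/- over WT for each of the 34 members by pathway step, with chow in blue and HFD in red and bars for the 95% interval from the SE. On chow the 6 members whose interval lies above 0 are sterol enzymes, and on the HFD the interval of Hmgcs1 alone leaves 0, on the lower side.

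On the HFD, too, no member passed the adjustment, where 32 of 16089 genes, or 0.199%, did, and the smallest Benjamini-Hochberg adjusted p of a member was 0.754. The members were divided, with 18 higher and 16 lower estimates and a median log2 fold change of 0.005 against 0.004 over all genes tested. Of all genes tested, 8364 of 16089 had a higher estimate. The members ran from -0.169 (Hsd17b7) to 0.147 (Scd1). At an unadjusted p under 0.05, 0 members were above WT, where 1.37% of all genes were, and 1 member (2.94%) was below WT, where 3.13% of all genes were. This was Hmgcs1, listed at 349.2 CPM in WT and 333.8 CPM in Gpr75-/- mice, with a log2 fold change of -0.115 ± 0.047 and an unadjusted p of 0.0141. Under the t distribution its p was no longer under 0.05.

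Of the 18 sterol enzymes, 7 had higher and 11 lower estimates on the HFD, with a median log2 fold change of -0.012. Of the 6 enzymes with an unadjusted p under 0.05 on chow, Hsd17b7 had a lower estimate on the HFD at -0.169 ± 0.110 and Msmo1 was at 0.017 ± 0.056. The others were at -0.007 ± 0.066 for Idi1, 0.028 ± 0.062 for Fdft1, 0.009 ± 0.057 for Sqle and 0.068 ± 0.056 for Cyp51. The group values of Idi1 were both listed at 74.03 CPM, and those of Sqle both at 123.2 CPM. The later sterol steps had a median of -0.088, with Hsd17b7 at 28.97 CPM in WT and 25.92 CPM in Gpr75-/- mice, Nsdhl at -0.115 ± 0.100 and Tm7sf2 at -0.108 ± 0.115. The 6 regulators all had small higher estimates, from 0.004 for Srebf1 to 0.075 for Stard4, with a median of 0.054. The fatty acid members were divided into 5 higher and 5 lower, with a median of -0.002. Scd1 was listed at 207.1 CPM in WT and 235.0 CPM in Gpr75-/- mice, the reverse of the order on chow, with an SE of 0.139. Acaca was at -0.150 with an SE of 0.194, which was 5.29 times its counting error.

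The precision bounded the changes of some members more closely than others. The median SE of a member was 0.082 on chow and 0.066 on the HFD, below the 0.119 and 0.108 over all genes tested. With these SEs, an estimated log2 fold change of about 0.35 on chow and 0.26 on the HFD would have been needed to pass the adjustment. The 95% interval lay wholly between a fold of 0.8 and 1.25 for 23 of the 34 members on chow and for 28 on the HFD, beside 7880 of the 16191 genes tested on chow and 8805 of 16089 on the HFD. On chow it did so for 9 of the 18 sterol enzymes and for 9 of the 10 fatty acid members, and on the HFD for 14 and 8. A p-value that misses the threshold does not show that a member was equal in both genotypes.

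The genotype effect was then compared between the diets, which share no mice. Each member's log2 fold change on the HFD minus that on chow was below 0 for 25 of 34 members, with a median of -0.087, against 48.6% of all 15893 genes tested on both diets and a median of 0.005. No gene passed the adjustment for this difference (0% of all genes), and the smallest Benjamini-Hochberg adjusted p over all genes was 0.545. At an unadjusted p under 0.05, 4 members had a lower effect on the HFD, where 265 genes or 1.67% of all genes did, and 0 members had a higher one, where 195 genes did. The difference was -0.424 ± 0.149 for Hsd17b7 (unadjusted p = 0.00457), -0.248 ± 0.091 for Msmo1 (0.00656), -0.226 ± 0.084 for Hmgcs1 (0.00736) and -0.231 ± 0.105 for Idi1 (0.0276), and the adjusted p was 1 for each. Under a t distribution with 8 degrees of freedom, 3 of these stayed under 0.05 and Idi1 did not. All 4 are sterol enzymes. Of the 18 sterol enzymes, 16 had a lower effect on the HFD, with a median difference of -0.151, while the 10 fatty acid members were divided 5 and 5, with a median of -0.002. Estimates had the same sign on both diets for 17 members and opposite signs for 17.

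**Figure D3:**
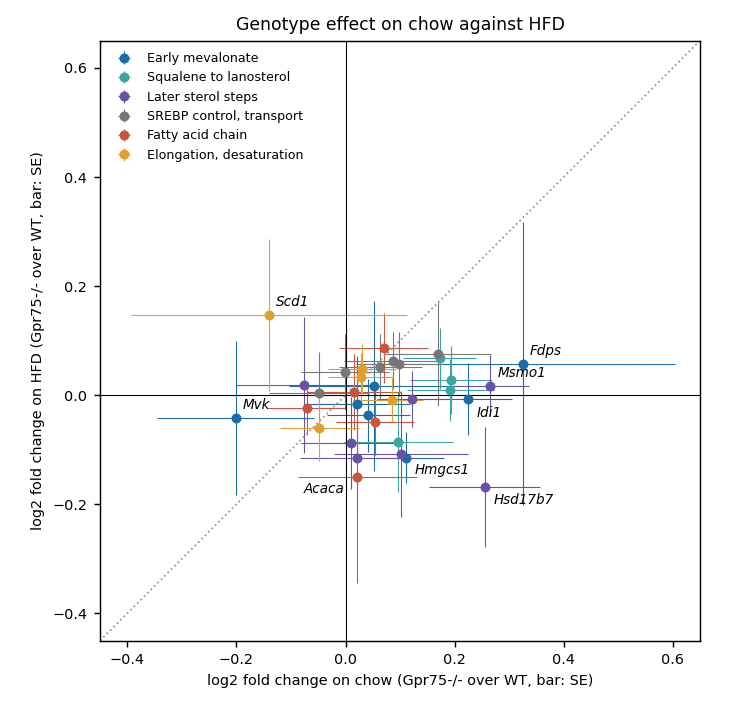
Log2 fold change of Gpr75-/- over WT on chow (x axis) and on the HFD (y axis) for the 34 members, with SE bars, colours for pathway steps and a dotted line where both effects would be equal. Hsd17b7, Msmo1, Idi1 and Hmgcs1 lie below this line by 0.226 to 0.424, and 25 of 34 members lie below it.

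In the group values, chow WT was often the lowest group for the sterol enzymes. The tables of both diets were normalized separately, so these levels are placed side by side with no test. The WT value was higher on the HFD than on chow for 14 of 18 sterol enzymes (77.8%), where 42.2% of all genes were, with a median difference of 0.141 in log2 CPM against 0.000 over all genes. Both rounded WT values were equal for 1821 of 15893 genes and 1 of 18 sterol enzymes, which count as not higher. Sqle was listed at 102.1 CPM in chow WT, 118.6 in chow Gpr75-/-, 123.2 in HFD WT and 123.2 in HFD Gpr75-/- mice. Cyp51 was listed at 106.0, 118.6, 123.2 and 133.0 CPM in the same order, and Sc5d at 133.0, 149.6, 155.6 and 155.6 CPM. In each of these 3 enzymes the chow WT group was the lowest of the 4. Chow WT was the single lowest of the 4 groups for 11 of the 18 sterol enzymes (61.1%), where it was so for 27.3% of all genes, and for 3 of the 10 fatty acid members (30%). The lowest rounded value was tied for 3365 of 15893 genes, 2 of the 18 sterol enzymes and 4 of the 10 fatty acid members. Chow WT does not count as lowest in such ties. The summed level of the 18 sterol enzymes was 1240 CPM in chow WT, 1390 in chow Gpr75-/-, 1400 in HFD WT and 1390 in HFD Gpr75-/- mice. The genotype effect on chow and the difference between the WT groups both rest on the same 3 chow WT mice, so they are not independent.

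Of 33 further genes of these pathways, 32 were listed, and none passed the adjustment on either diet. Of the 11 sterol supply genes listed, 10 had higher estimates on chow, with a median log2 fold change of 0.049. On the HFD 8 did, with a median of 0.006. Of the 9 genes of sterol turnover and efflux, 7 had lower estimates on chow, with a median of -0.064, and 4 on the HFD, with a median of 0.071. The 12 further fatty acid genes had 6 higher and 6 lower estimates on either diet, with medians of 0.012 and -0.016.

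Markers of other cell types moved with genotype in the same mice, and in bulk tissue fewer cells of a type cannot be told apart from less RNA per cell. Of 15 oligodendrocyte markers, 15 had lower estimates in Gpr75-/- mice on chow, with a median log2 fold change of -0.170, and 15 on the HFD, with a median of -0.242. Aspa and Fa2h were among those that fell past the adjustment on chow, and Mbp, Mog, Mobp, Cldn11, Mal and Tspan2 were among those that did so on the HFD. The summed level of this list was 12300 CPM in chow WT, 10500 in chow Gpr75-/-, 13000 in HFD WT and 11100 in HFD Gpr75-/- mice. Of the 18 sterol enzymes, 2 had lower estimates on chow and 11 on the HFD, and the part of the oligodendrocyte signal in these values was not tested. No astrocyte marker passed the adjustment, with a median of 0.019 on chow and -0.016 on the HFD, and Gfap and Aqp4 were at -0.032 and 0.053 on chow. No neuron marker passed either, with Snap25 at -0.035 and Syt1 at -0.035 on chow. The neuropeptide and regional markers of the hypothalamus were present, with Pmch at 225.2 CPM and Pomc at 20.42 CPM in HFD WT mice. On the HFD 10 of 10 of them had higher estimates in Gpr75-/- mice, of which Pmch passed the adjustment.

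Other signals differed between the chow groups. All 5 red blood cell genes had higher estimates in Gpr75-/- mice on chow, with Hbb-bs and Hbb-bt past the adjustment, and summed to 277 CPM in WT and 443 CPM in Gpr75-/- mice, beside 314 and 280 CPM on the HFD. All 8 glucocorticoid-induced genes had higher estimates on chow, with a median log2 fold change of 0.389 and Tsc22d3 past the adjustment, and summed to 469 and 670 CPM, beside 732 and 801 CPM on the HFD. The 9 choroid plexus genes, with Ttr and Kl as the defining ones, had higher estimates on chow, but 6 of them were count outliers in the authors' fit, so that only 3 were tested. On the HFD 5 of these genes were listed, of which 2 had higher and 3 lower estimates, and Ttr fell, with a log2 fold change of -1.491 ± 0.329 (Benjamini-Hochberg adjusted p = 0.00692). Microglia and endothelial markers had no member past the adjustment on either diet, with Cx3cr1 at -0.222, Csf1r at -0.058, Cldn5 at -0.133 and Pecam1 at -0.079 on chow. The part of these other signals in the values of the sterol enzymes was not tested. Gpr75 itself was listed at 16.71 CPM in WT and 24.55 CPM in Gpr75-/- mice on chow, a log2 fold change of 0.552 ± 0.120 (Benjamini-Hochberg adjusted p = 0.0076), and at 19.9 and 18.45 CPM on the HFD (-0.065 ± 0.345). Because this allele leaves the mRNA in place, these values do not check the genotype labels.

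**Figure D4:**
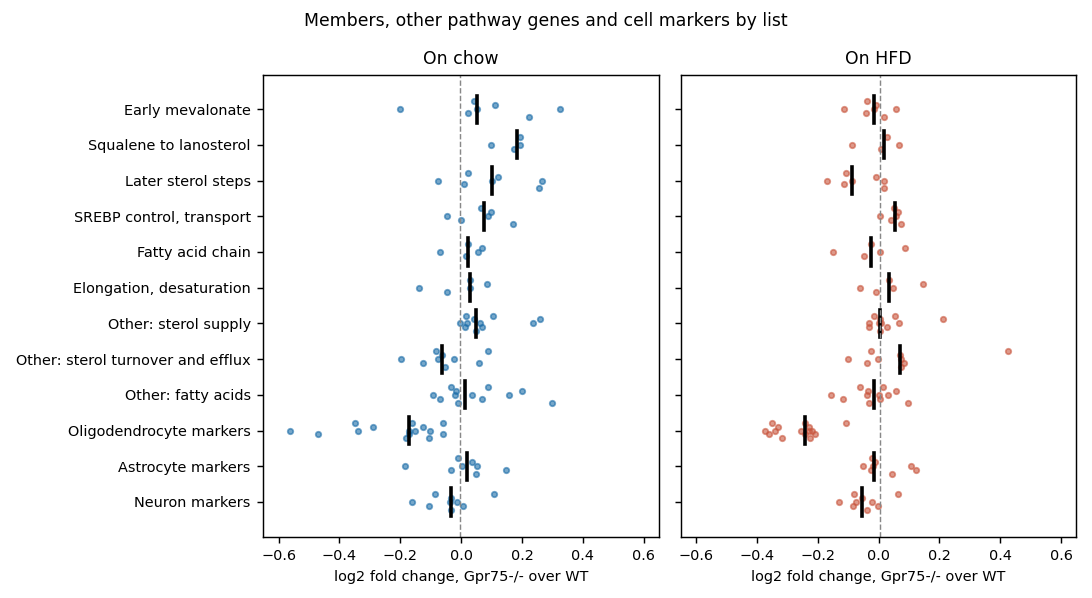
Log2 fold change of Gpr75-/- over WT on chow (left) and the HFD (right) for each gene of the 6 pathway steps, the 3 further pathway lists and 3 marker lists, with points for genes, black bars for list medians and a dashed line for the median of all genes tested. The sterol steps lie to the right of the dashed line on chow with medians of 0.053 to 0.183, while the oligodendrocyte markers lie to the left on both diets.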

How the data were processed

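Hypothalamic mRNA of 12 mice was sequenced by the authors from SMART-Seq libraries, and groups were taken from the sample labels. Per the labels' processing notes, the tools were STAR, featureCounts, StringTie and DESeq2 and the build GRCm39, with no versions given. The deposited signal per gene is the mean count over 6 mice after the authors' scaling by size factors. The deposited log2 fold change and its standard error come from the authors' fit of each diet alone. The deposited p-values, adjusted p-values and Bonferroni values of the authors were read only to see which genes their filter and outlier rule had kept. The group columns that the authors deposited are on a scale that the files do not name. Their values matched log2 of (log2 CPM + 1), rounded to 2 decimals, since undoing it gave columns that summed to 992419 to 994240 CPM, so group values are given as CPM with a rounding error of 0.615% to 2.96%. Group values have no SD, since single mice are not in the tables, and they need not be plain means of the mice. On chow, Ttr had a mean count of 2910, with all genes summing to 18280462. Its group values were only 5.587 CPM in WT and 12.92 CPM in Gpr75-/- mice.

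The per-gene test chosen for tables of this kind was used. It divided the log2 fold change by its error to give a Wald statistic with a 2-sided normal p-value and Benjamini-Hochberg adjustment over 16191 genes on chow and 16089 on the HFD, called at an adjusted p under 0.05. The smallest mean count tested was 25.1 on chow and 26.9 on the HFD. The difference between diets used the root of the summed squared standard errors. Intervals are 95%. Replicates are separate mice per the labels. These steps were tested on simulated data drawn from a normal distribution with the deposited standard errors, which is the model the test assumes. This checks the computation only, and the planted changes were larger than any estimate of a member. Alternatives were no filter, a minimum mean of 100, adjustment over coding genes only, Bonferroni adjustment, a t distribution, statistics divided by their spread, centring and the ratio of group CPM.

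The members, pathway lists and marker lists were chosen with earlier results of these data known. The genes named are all 34 members, further pathway genes with an unadjusted p under 0.05, and of each marker list the first 2 genes and those past the adjustment. A few genes that this rule names are not reported here. Exon lengths and transcripts came from GENCODE M21, matched by Ensembl identifier for 99.81% of genes, and copies were searched with BLAST+ 2.17.0 at 95% identity or more over at least 25% of the transcript. Promoter windows are of GRCm38.p6, a different build from the files, and no coordinate was converted. Python 3.11.15, numpy 2.4.6, pandas 2.3.3, scipy 1.17.1 and matplotlib 3.10.9 were used.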

Additional observations from a re-analysis of the deposited data

How the results depend on the processing

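Of 174 alternative values computed, 8 moved and none reversed, but many of the others could not move, since a log2 fold change is the same under another filter, adjustment or reference distribution, and an unadjusted p under another adjustment. With a t distribution in place of the normal, 0 genes passed on chow and 0 on the HFD, and members at an unadjusted p under 0.05 went from 6 to 1 on chow, from 1 to 0 on the HFD and from 4 to 3 for the difference between diets. With statistics divided by their spread, 20 genes passed on chow, 93 on the HFD and 2 for the difference between diets, and with Bonferroni adjustment 11 passed on the HFD. Members at an unadjusted p under 0.05 with statistics divided by their spread numbered 7 on chow, 1 on the HFD and 6 for the difference. The changes from 6 to 7, from 4 to 6 and from 4 to 3 were not counted as moved. No member passed under any alternative, and the smallest Benjamini-Hochberg adjusted p of a member was then 0.0569 on chow, for Msmo1 with statistics divided by their spread, in a range of 0.0569 to 1 over the alternatives. The members' median log2 fold change ran from 0.054 to 0.062 on chow and from 0.000 to 0.005 on the HFD. No paired analysis was possible because the tables hold no values of single mice, and for the same reason no mouse could be left out in turn. Whether 1 mouse decides a value, such as that of Scd1 or of the chow WT group, could therefore not be seen. With 3 mice per group, an estimated log2 fold change of about 0.35 on chow was needed to pass at the members' median SE.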
